A study of Homo sapiens with 6 samples.

Results

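The genes described are 8 that encode Fc receptor chains, FCGR1A, FCGR2A, FCGR2B, FCGR3A, FCER1G, FCER2, FCGRT and FCAR, together with SYK, the kinase that activating Fc receptors recruit. They were taken by gene symbol, and all 9 were found among the 17513 genes with values and passed the low-count filter that left 13555 genes for testing. The 6 libraries are polyadenylated RNA of macrophages made, per the series' design text, from THP1 cells (a human line of leukemic monocytes) by a route that the text does not give. One group of 3 received, for 48 h, medium conditioned by KYSE150 cells carrying shSPP1#2, a hairpin against SPP1. The other group of 3 received medium of KYSE150 cells carrying shNC, the control hairpin, and the groups are called shSPP1#2 medium and shNC medium here. KYSE150 is a human esophageal squamous carcinoma line, SPP1 encodes the secreted protein osteopontin, and the question framed by the series is whether tumor osteopontin promotes macrophages of the alternative, M2 type. A single hairpin and a single recipient line were used, and nothing states that replicates are separate cultures, so p-values measure variation among these libraries only, part or all of which may be technical.

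Fc receptors bind the constant part of antibodies and let a macrophage ingest, kill or respond to whatever the antibody has coated. Activating receptors carry an activation motif (ITAM) in their own tail or borrow it from the FCER1G chain; Src family kinases phosphorylate it, SYK docks, and phagocytosis and cytokine release follow. The inhibitory receptor FCGR2B carries an inhibition motif (ITIM) that recruits the lipid phosphatase INPP5D, so the balance of activating and inhibitory receptors sets how readily IgG complexes trigger the cell. FCGRT, the neonatal Fc receptor, works inside the cell, where it returns IgG and albumin from acidic endosomes to the surface.

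The sample labels name KYSE150, so cell identity was checked by markers. Of 15 monocyte and macrophage markers, 14 reached 1 FPKM in every library, led by LAPTM5 (725 to 823 FPKM), ITGAX (281 to 314 FPKM) and CD68 (239 to 251 FPKM). Of 12 squamous markers with values, KRT15 reached 2.75 to 4.01 FPKM and the other 11 did not exceed 0.61 FPKM. Markers of neutrophils summed to 20 to 23.0 FPKM in shSPP1#2 medium and 20.7 to 21.7 FPKM in shNC medium. Markers of mast cells and basophils summed to 2.42 to 2.87 FPKM in shSPP1#2 medium and 2.53 to 2.92 FPKM in shNC medium. Total estimated counts were 20202142 to 20572456 in shSPP1#2 medium and 18113591 to 20626346 in shNC medium, and pairs of replicates differed by more than counting noise (chi-square per degree of freedom 3.20 to 4.33). On the first principal component, with 34.0% of the variance, replicate 2 of each group stood highest, at 6.62 in shSPP1#2 medium and 10.1 in shNC medium. The hairpin acts in the KYSE150 donors, so the macrophages' own SPP1, at 1932 to 2061 FPKM in shSPP1#2 medium and 1890.4 to 2075 FPKM in shNC medium, does not check it.

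Promoter sequence is shown for the 2 activating receptors FCGR1A and FCGR2A, which carry the same element while their mean levels here differed 14.0-fold. RefSeq promoter windows on GRCh38.p14 (250 bases before to 50 after a transcription start) were present for 8 of the 9 genes, in 16 entries. Among these genes the longest run that windows of 2 different genes share on the same strand is 20 bases long, begins at position -52 of FCGR1A and -51 of FCGR2A counted from the RefSeq start, and was in 2 of 35116 windows of the whole table. The last 110 bases before the start, plus strand, are given with this run in capitals; in FCGR1A the capitals also mark a match to the STAT element TTCNNNGAA. The FCGR1A stretch is chr1:149782584-149782693 and that of FCGR2A is chr1:161505347-161505456.
FCGR1A: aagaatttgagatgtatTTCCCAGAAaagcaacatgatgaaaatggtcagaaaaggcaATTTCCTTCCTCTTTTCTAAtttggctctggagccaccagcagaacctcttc
FCGR2A: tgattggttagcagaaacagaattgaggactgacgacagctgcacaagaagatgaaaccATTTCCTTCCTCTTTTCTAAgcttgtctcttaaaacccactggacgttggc
The shared run holds GAGGAA on the minus strand, the core recognised by the myeloid factor PU.1, which was searched on both strands and occurred in 27.9% of all windows, those of FCGR2B, FCGR3A, FCGRT and SYK included. The element TTCNNNGAA and the STAT6-type variant with 4 bases in place of its 3 free ones, both the same on either strand, occurred in 7.66% and 6.44% of windows. The shorter one was in windows of FCGR1A, FCGR2B and FCER2, and the longer one in a window of FCER2. These matches do not overlap each other and describe letters only. SPI1, the gene of PU.1, measured 184 to 199 FPKM over the 6 libraries; it was named after its values were seen.

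Levels are given as FPKM, the authors' fragment numbers scaled for transcript length and library size. Comparisons between genes depend on the lengths used, which the sources do not give. FCER1G was highest, with a mean of 385 ± 38.2 FPKM (SD over 6 libraries), in the 99.1st percentile of all genes with values. FCGRT followed at 84.3 ± 3.29 FPKM, FCAR at 73.5 ± 3.82 FPKM and FCGR2A at 67.3 ± 3.75 FPKM. FCGR2B and SYK lay lower, at 15.8 ± 1.37 and 15.3 ± 1.0 FPKM. FCGR1A reached 4.82 ± 0.325 FPKM, FCGR3A 3.94 ± 0.457 FPKM and FCER2 only 0.590 ± 0.0872 FPKM, on 14 to 20 estimated counts per library. The ranges of 3 neighbouring pairs overlapped. FCAR exceeded FCGR2A in 5 of 6 libraries, FCGR2B exceeded SYK in 4 of 6, and FCGR1A exceeded FCGR3A in 5 of 6. Each other gene in this order lay above the next in all 6 libraries. Without scaling for length the lead of FCER1G was smaller. In library-size-scaled counts (CPM) it averaged 195 in shSPP1#2 medium and 222 in shNC medium, against 168 and 177 for FCAR.

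**Figure D1:**
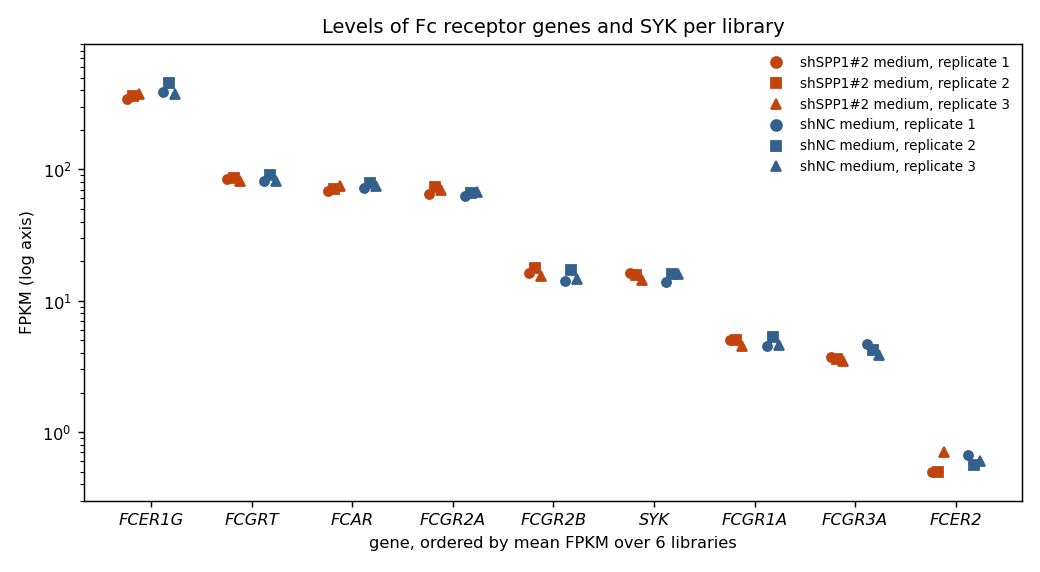
FPKM of the 9 genes in each library on a log axis, with shSPP1#2 medium left of shNC medium for each gene and one symbol per replicate. FCER1G stands above all others at 346 to 457 FPKM and FCER2 below all others at 0.50 to 0.71 FPKM. The distance of FCER1G and FCER2 from the other genes is far larger than that between groups. FCAR and FCGR2A, FCGR2B and SYK, and FCGR1A and FCGR3A overlap in range.

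None of the 9 genes differed between the groups at an edgeR adjusted p below 0.05, as was true of all tested genes (0 of 13555, or 0%). An unadjusted p below 0.05 was found for 2 of the 9, beside 928 (6.85%) of all tested genes. DESeq2 called 25 of 17482 genes (0.143%), or 1.32% of the 1891 genes to which it gave an adjusted p, with 0 among the 4 of the 9 genes in that set. The library-size-scaled counts (CPM) of the groups did not overlap for 2 of the 9 genes, FCER1G and FCGR3A, both lower in shSPP1#2 medium, beside 11.1% of all tested genes (5.5% lower, 5.63% higher). For the 9 genes the median log2 fold change was -0.017, with 4 positive and 5 negative, and over all tested genes it was -0.0003. The 95% interval lay within 0.5 of 0 on the log2 scale for 8 of the 9 genes and within 1 for all 9. In bulk RNA a lower value can come from fewer expressing cells or from less RNA per cell, and these cannot be told apart.

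**Figure D2:**
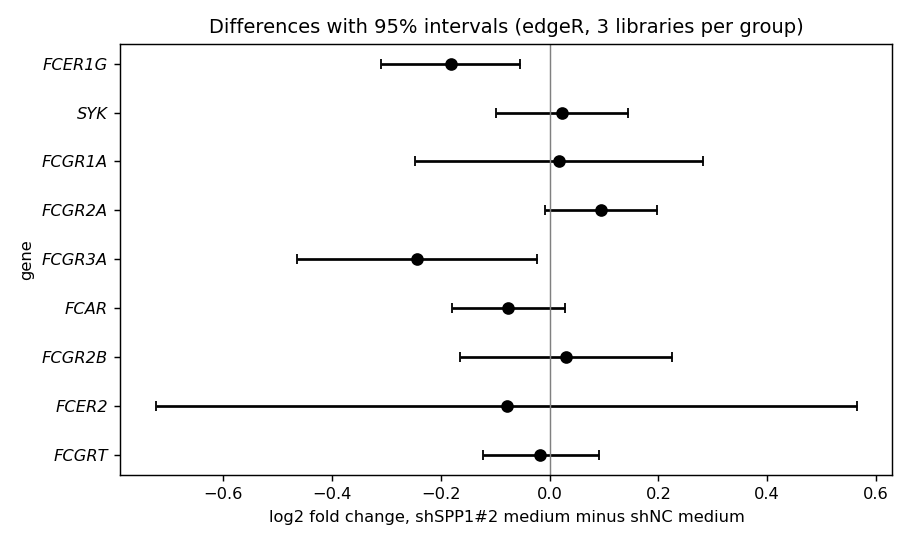
Log2 fold change of each gene, shSPP1#2 medium minus shNC medium, with its 95% interval from the edgeR fit (3 libraries per group). The intervals of FCER1G and FCGR3A lie below 0 before adjustment, that of FCER2 runs from -0.73 to 0.57, and the other 6 include 0.

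FCER1G, the shared signalling chain of FCGR1A, FCGR3A and FCAR, had the smallest p of the 9 genes. It measured 346, 364 and 374 FPKM in shSPP1#2 replicates 1, 2 and 3, against 391, 457 and 378 FPKM in shNC replicates 1, 2 and 3. The 3 shSPP1#2 libraries were the 3 lowest, but the gap to the nearest shNC library was small, and shNC replicate 2 was far above the rest. On the count scale it averaged 195 ± 7.32 CPM in shSPP1#2 medium and 222 ± 24.8 CPM in shNC medium (SD, n = 3 each). The log2 fold change was -0.18 (SE 0.061, 95% interval -0.31 to -0.055, 0.881-fold; edgeR adjusted p = 0.575). Without shNC replicate 2 it was -0.089, and with every other single library left out it ran from -0.24 to -0.15. FCER1G has short transcripts (551 and 591 bases), and after removal of a smooth fit of each library on length and GC content the value was -0.093 (edgeR adjusted p = 0.749). TYROBP, the other widely used activation chain of myeloid cells, measured 159, 144 and 155 FPKM in shSPP1#2 medium and 157, 189 and 156 FPKM in shNC medium, with its highest value again in shNC replicate 2. The ratio of FCER1G to TYROBP within a library was 2.37 ± 0.176 in shSPP1#2 medium and 2.45 ± 0.0388 in shNC medium, and the groups overlapped. FCER1G lies on chromosome 1, 161215234 to 161220699, plus strand.

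SYK, the tyrosine kinase that binds the phosphorylated activation motif, showed overlapping groups. It measured 16.2, 15.6 and 14.3 FPKM in shSPP1#2 medium, against 13.8, 15.9 and 15.9 FPKM in shNC medium, where the lowest library was shNC replicate 1. Its log2 fold change was 0.023 (SE 0.058, 95% interval -0.099 to 0.14; edgeR adjusted p = 0.971). FCER1G transcripts outnumbered those of SYK per length in every library, by 23.6 ± 2.45 to 1 in shSPP1#2 medium and 26.9 ± 2.81 to 1 in shNC medium. The groups overlapped in this ratio too, since shNC replicate 3, at 23.7, lay below shSPP1#2 replicate 3, at 26.2. SYK lies on chromosome 9, 90801787 to 90898549, plus strand.

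**Figure D3:**
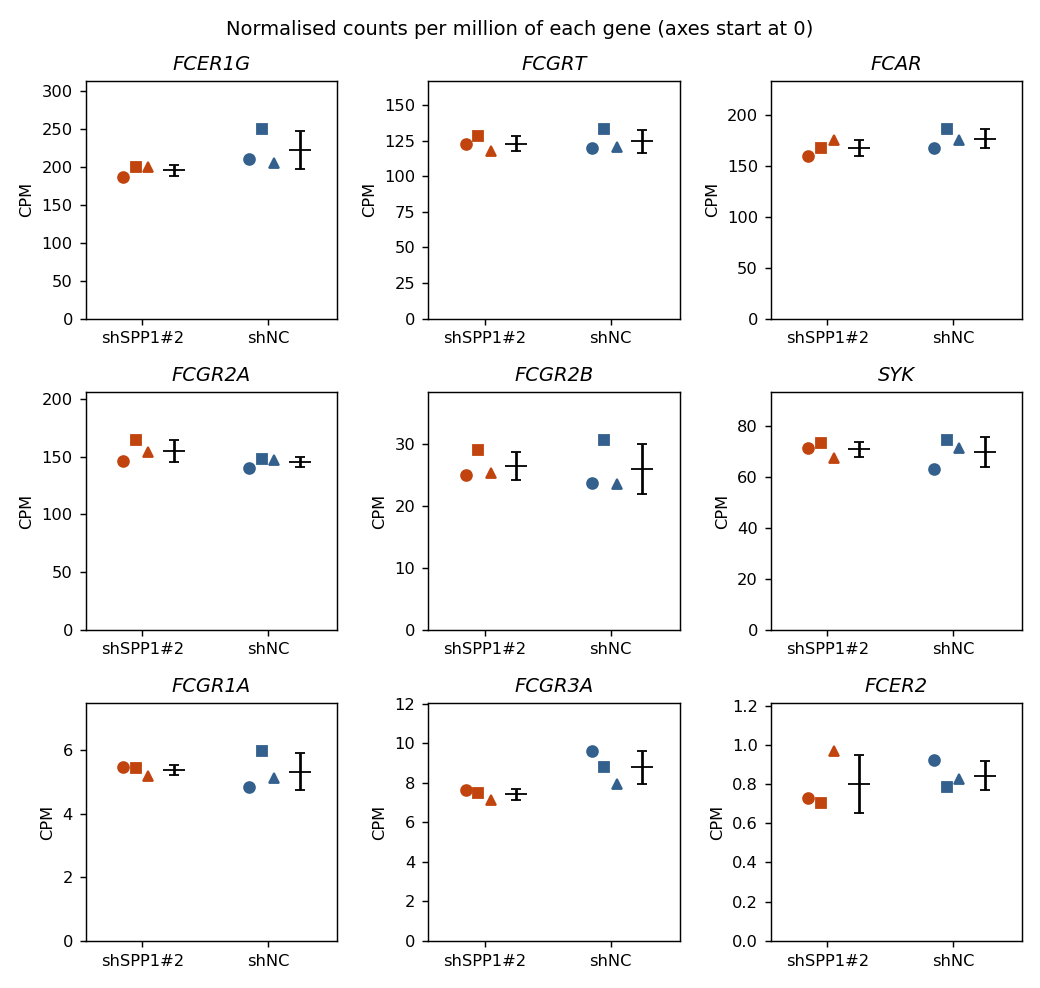
CPM of each gene per library, shSPP1#2 medium left of shNC medium, with mean and SD beside the points and every axis starting at 0. In the FCER1G panel the square of shNC replicate 2 stands at 250.1 CPM above all other libraries, and in the FCGR3A panel the 3 shSPP1#2 points lie together at 7.12 to 7.66 CPM.

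FCGR2A, an IgG receptor that carries an activation motif in its own tail, had the highest level of the 4 FCGR1A, FCGR2A, FCGR2B and FCGR3A in every library. It made up 73.6 ± 1.23% of their FPKM sum in shSPP1#2 medium and 72.8 ± 1.69% in shNC medium. Its level was 65.3, 72.9 and 69.9 FPKM in the shSPP1#2 libraries, against 62.3, 65.6 and 67.5 FPKM in the shNC libraries. The highest 2 values came from shSPP1#2 medium, but shSPP1#2 replicate 1 lay among the shNC libraries. Between the groups the log2 fold change was 0.095 (SE 0.049, 95% interval -0.0080 to 0.20; edgeR adjusted p = 0.756), and the upper end of the interval is 1.15-fold. FCGR2A lies on chromosome 1, 161505430 to 161524013, plus strand. Of the distinct 100-base stretches of its coding transcripts, 12.1% also occur in transcripts of other genes, mainly FCGR2C.

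FCGR1A, the high-affinity IgG receptor, was present at a low level in both groups. It measured 4.99, 5.01 and 4.56 FPKM in shSPP1#2 medium, against 4.49, 5.30 and 4.58 FPKM in shNC medium, and the groups overlapped fully. Its log2 fold change was 0.017 (SE 0.13, 95% interval -0.25 to 0.28; edgeR adjusted p = 0.993). It lies on chromosome 1, 149782671 to 149792518, plus strand, and 48.5% of its 100-base stretches occur in other annotated transcripts, among them those of its copies FCGR1B and FCGR1CP. Its estimated counts, 99.9 to 113 per library, are therefore uncertain.

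FCGR3A, the IgG receptor of NK cells and of a subset of monocytes and macrophages, was lower in each shSPP1#2 library than in any shNC library. It measured 3.74, 3.59 and 3.50 FPKM in shSPP1#2 medium, against 4.72, 4.21 and 3.87 FPKM in shNC medium. The shSPP1#2 libraries lay close together, and shNC replicate 1 was the highest. The fitted log2 fold change was -0.24 (SE 0.10, 95% interval -0.46 to -0.024, 0.844-fold; edgeR adjusted p = 0.676), on 147 to 198 estimated counts per library. With single libraries left out it ran from -0.31 to -0.17. Of its 100-base stretches 12.8% are shared with FCGR3B, the neutrophil form, which itself measured 0 to 0.12 FPKM. FCGR3A lies on chromosome 1, 161541759 to 161550737, minus strand.

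Some markers of T and NK cells also had lower values in shSPP1#2 medium. Of the 12 on that list 9 had values and 8 were tested, of which 1 had a positive and 7 a negative log2 fold change, with 0 passing the edgeR test. The log2 fold change was -0.25 for GZMB, -0.23 for NKG7, -0.20 for NCR1 and -0.17 for GNLY. It was near 0 for PRF1 (-0.024), NCAM1 (-0.019), KLRD1 (-0.013) and EOMES (0.01). Their summed level was 248 to 274 FPKM in shSPP1#2 medium and 268 to 314 FPKM in shNC medium. Most of that sum was GNLY, a granule protein, at 231, 239 and 214 FPKM in shSPP1#2 medium against 259, 274 and 233 FPKM in shNC medium. For GNLY the groups overlapped in CPM. The protease GZMB averaged 9.15 ± 0.842 FPKM in shSPP1#2 medium and 10.8 ± 1.2 FPKM in shNC medium, without overlap in CPM. The same lack of overlap was seen for NCR1 and for 11.1% of all tested genes. In FPKM, shNC replicate 2 was the highest library for GNLY (274), GZMB (12.2) and NCR1 (10.1). NCR1, an NK receptor, averaged 8.38 ± 0.514 FPKM in shSPP1#2 medium and 9.17 ± 0.848 FPKM in shNC medium, while the NK receptor gene KLRF1 stayed at 0.060 to 0.19 FPKM. The genes of the list without values were CD3D, CD3E and CD2. Per the series' design text, the libraries hold RNA of macrophages made from THP1 cells, a single line. Lower values were not confined to that list, whose median log2 fold change was -0.095. Of 14 tested monocyte and macrophage markers, 5 were positive and 9 negative (median -0.031), with CD163 at -0.23 and AIF1 at -0.21. Of 5 tested neutrophil markers, 2 were positive and 3 negative (median -0.049), from -0.81 for CXCR2 to 0.45 for ELANE. NK cells also use FCGR3A and FCER1G, and a link of the T and NK markers to both genes was not tested.

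FCAR, the IgA receptor of myeloid cells, had a mean level slightly above that of FCGR2A. It measured 68.1, 70.9 and 75.3 FPKM in shSPP1#2 medium, against 72.6, 79.1 and 74.9 FPKM in shNC medium. The lowest 2 libraries were of shSPP1#2 medium, but shSPP1#2 replicate 3 exceeded 2 of the shNC libraries. Its log2 fold change was -0.076 (SE 0.050, 95% interval -0.18 to 0.028; edgeR adjusted p = 0.836), and it was -0.036 without shNC replicate 2 and -0.033 after removal of the length and GC fit. FCAR lies on chromosome 19, 54874248 to 54890472, plus strand, and none of its 100-base stretches occurs in another annotated gene. Among FCGR1A, FCGR3A and FCAR, which signal through FCER1G, FCAR had the highest FPKM in every library. The sum of these 3 was 0.221 ± 0.00229 times FCER1G in shSPP1#2 medium and 0.208 ± 0.0134 times FCER1G in shNC medium, and the groups overlapped.

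FCGR2B, the inhibitory IgG receptor, was well below FCGR2A in every library. It measured 16.1, 17.6 and 15.4 FPKM in shSPP1#2 medium, against 14.2, 17.1 and 14.6 FPKM in shNC medium. Replicate 2 was the highest library of each group, and the groups overlapped. On counts the log2 fold change was 0.030 (SE 0.093, 95% interval -0.17 to 0.23; edgeR adjusted p = 0.976). On log2(FPKM + 1) it was 0.099 (limma adjusted p = 0.873); the cause of this gap was not tested. It lies on chromosome 1, 161663147 to 161678654, plus strand, and 27.3% of its 100-base stretches occur elsewhere, nearly all in FCGR2C, for which no values were analysed here.

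The balance of activating to inhibitory receptor did not separate the groups. The ratio of FCGR2A to FCGR2B in FPKM was 4.05, 4.14 and 4.54 in shSPP1#2 replicates 1, 2 and 3, against 4.41, 3.85 and 4.63 in shNC replicates 1, 2 and 3. Both the lowest and the highest ratio belonged to shNC medium. Means were 4.24 ± 0.262 in shSPP1#2 medium and 4.29 ± 0.404 in shNC medium (SD, n = 3 each), a difference of -0.015 on the log2 scale, smaller than the SD of 0.088 in shSPP1#2 medium and 0.14 in shNC medium. In CPM, which leaves length out, the difference was 0.060. Summing all 3 activating IgG receptors over FCGR2B gave 4.76 ± 0.263 in shSPP1#2 medium and 4.89 ± 0.428 in shNC medium. No test was made on these ratios. Stretches that FCGR2A and FCGR2B share with FCGR2C make both levels, and so the ratios, less certain.

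**Figure D4:**
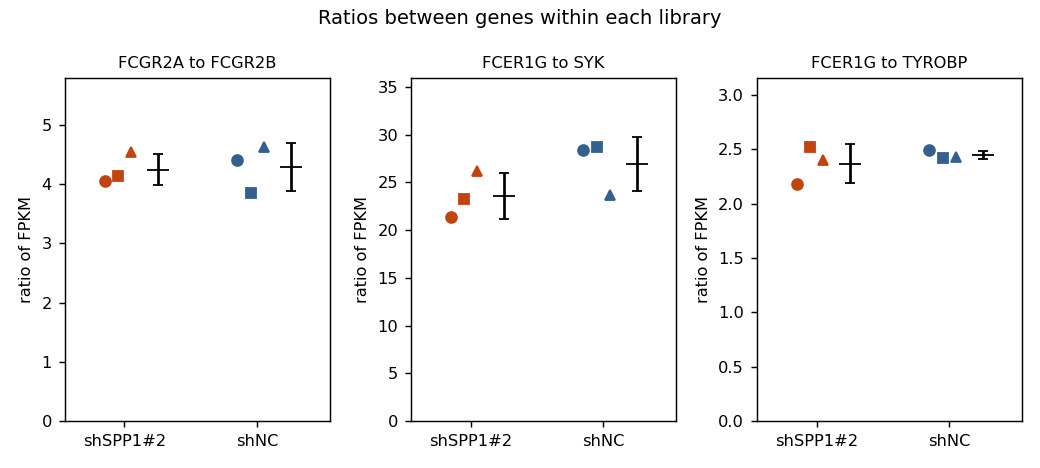
Ratios of FPKM within each library, shSPP1#2 medium left of shNC medium, with mean and SD beside the points. The FCGR2A to FCGR2B ratio ran from 3.85 to 4.63, with both ends in shNC medium, and the groups overlap in all 3 panels.

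FCER2, the low-affinity IgE receptor of B cells that interleukin 4 induces on monocytes, was barely detected. It had 15, 14 and 20 estimated counts (0.50, 0.50 and 0.71 FPKM) in shSPP1#2 medium, against 19, 14 and 17 (0.67, 0.56 and 0.60 FPKM) in shNC medium. Its log2 fold change was -0.079 (SE 0.31, 95% interval -0.73 to 0.57; edgeR adjusted p = 0.981), an interval from 0.605-fold to 1.48-fold. FCER2 lies on chromosome 19, 7688758 to 7702146, minus strand.

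FCGRT, the neonatal Fc receptor, varied least of the 4 most abundant genes. It measured 84.0, 86.4 and 81.6 FPKM in shSPP1#2 medium, against 82.1, 90.0 and 82.0 FPKM in shNC medium. Its log2 fold change was -0.017 (SE 0.051, 95% interval -0.12 to 0.090; edgeR adjusted p = 0.976). Its light chain partner B2M was 24.3 ± 0.571 times as abundant per length in shSPP1#2 medium and 25.1 ± 1.32 times in shNC medium. B2M itself measured 2019, 2058 and 2031 FPKM in shSPP1#2 medium against 2157, 2130 and 2085 FPKM in shNC medium, without overlap, at a log2 fold change of -0.066 (edgeR adjusted p = 0.838). Of 8 genes for the partner and for endosomal recycling, 0 passed, 4 had positive and 4 negative values, and the median was -0.006. The tether EEA1 measured 0.12 (0.007 to 0.24) and the recycling adaptor RAB11FIP1 0.061 (-0.031 to 0.15) on the log2 scale. FCGRT lies on chromosome 19, 49506816 to 49526333, plus strand.

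Other Fc receptor genes differed widely in level. FCRLA, an intracellular Fc receptor-like protein known from B cells, measured 122 to 135 FPKM, above FCGR2A. The other 8 B cell markers with values did not exceed 0.89 FPKM in any library. FCMR, the IgM receptor, averaged 24.4 ± 1.57 FPKM in shSPP1#2 medium and 21.3 ± 0.866 FPKM in shNC medium (log2 fold change 0.16, 95% interval 0.035 to 0.28; edgeR adjusted p = 0.618), and the groups overlapped in CPM. TRIM21, the cytosolic IgG receptor, averaged 16.6 ± 0.435 FPKM in shSPP1#2 medium and 16.9 ± 1.16 FPKM in shNC medium. FCRLB averaged 16.0 ± 1.09 and FCRL6 2.60 ± 0.240 FPKM in shSPP1#2 medium, against 15.2 ± 0.508 and 2.19 ± 0.151 FPKM in shNC medium. PIGR, the epithelial transporter of IgA and IgM, averaged 4.10 ± 0.385 FPKM in shSPP1#2 medium and 3.92 ± 0.419 FPKM in shNC medium. The remaining 8 with values (FCGR3B, MS4A2, FCAMR, FCRL1, FCRL2, FCRL3, FCRL5 and FCGBP) did not exceed 0.19 FPKM. MS4A2 encodes the beta chain of the high-affinity IgE receptor, which also uses the FCER1G chain. Of the 8 tested genes of this list, 0 passed, with a median log2 fold change of 0.063.

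The signalling machinery downstream of the receptors was well expressed and 0 of its genes passed. Among 10 tested Src family kinases and regulators, 7 had positive and 3 negative log2 fold changes, with a median of 0.039. FYN, the most abundant at 65.3 to 76.5 FPKM, measured 0.12 (95% interval 0.027 to 0.22; edgeR adjusted p = 0.626), the adaptor PAG1 0.095 and LYN, which phosphorylates activation and inhibition motifs, 0.047. Among 27 effectors downstream of SYK, 14 were positive and 13 negative, with a median of 0.006; the adaptor LAT2 was the most abundant, at 260.3 to 280 FPKM. The PI3-kinase subunits PIK3R1 and PIK3CA measured 0.22 (0.099 to 0.34; edgeR adjusted p = 0.442) and 0.19 (0.053 to 0.32; adjusted p = 0.583), while the leukocyte subunit PIK3CD measured -0.15 (-0.30 to 0.007). In these 3 genes the groups did not overlap in CPM.

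Phosphatases and docking proteins of the inhibitory branch had a median of 0.014 over 10 genes, 6 positive and 4 negative. INPP5D, the lipid phosphatase that FCGR2B recruits, averaged 32.5 ± 0.953 FPKM in shSPP1#2 medium and 31.5 ± 1.51 FPKM in shNC medium. The docking proteins DOK2 and DOK3 measured -0.12 (-0.23 to -0.002; edgeR adjusted p = 0.724) and -0.085 (-0.20 to 0.032), and the phosphatase PTPN6 was the most abundant at 53.4 to 56.0 FPKM. Among 21 actin effectors of phagocytosis, 11 were positive and 10 negative, with a median of 0.001. The GTPase RAC2 was the most abundant at 519 to 569 FPKM; WIPF1, a partner of the actin nucleation promoter WAS, measured 0.11 (0.003 to 0.21), the myosin MYO1F 0.084 and the filament elongation factor VASP -0.070. The adaptor list of TYROBP, HCST and CD247 had 3 negative values of 3 and a median of -0.13, that of TYROBP (95% interval -0.27 to 0.007; edgeR adjusted p = 0.746). That median was -0.029 without shNC replicate 2, where HCST measured 0.060, and -0.035 after removal of the length and GC fit.

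**Figure D5:**
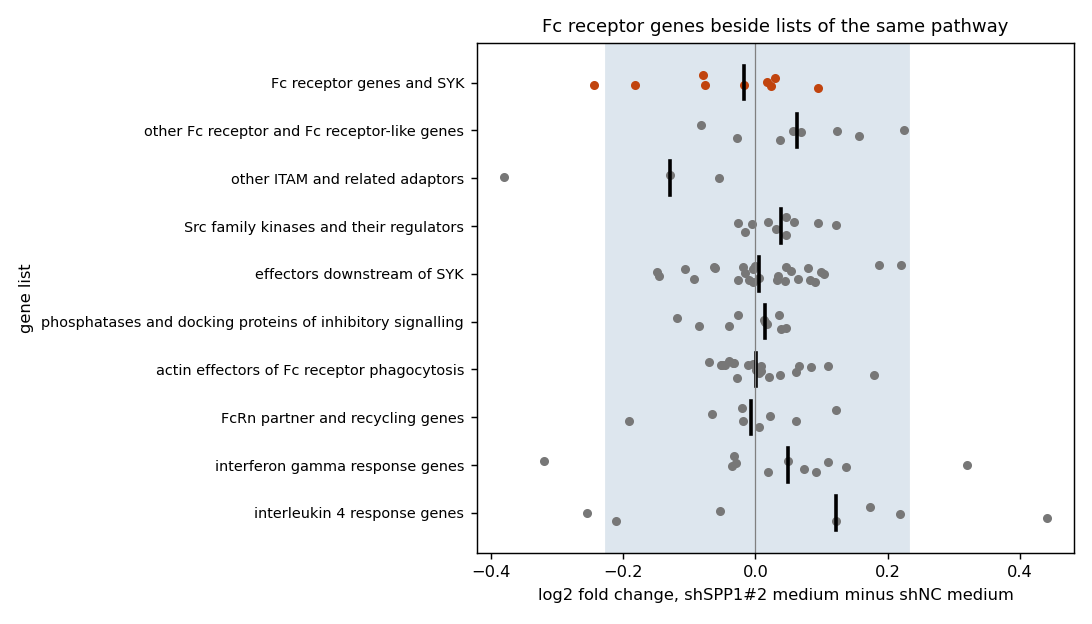
Log2 fold change of each tested gene in the Fc receptor set (orange) and in 9 related lists (grey), with the list median as a black bar. The band spans the 5th to 95th percentile of all tested genes, -0.23 to 0.23; of the 9 Fc receptor genes, only FCGR3A, at -0.24, lies outside it.

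Genes induced by interferon gamma, which raises FCGR1A, and by interleukin 4, which raises FCER2, were mostly low in both groups. Of 12 interferon gamma response genes with values, 3 reached 1 FPKM in every library. The 5 genes GBP1, GBP2, GBP4, GBP5 and CIITA measured 0.19 to 0.75 FPKM in every library, and CXCL10 was listed at 0 in 5 of 6. ICAM1 was the most abundant at 150 to 163 FPKM. On the log2 scale GBP5 measured -0.32 and GBP1 0.32, with intervals that include 0; GBP5 was -0.16 without shSPP1#2 replicate 2 and GBP1 0.13 without shNC replicate 2. Over 11 tested genes 7 were positive and 4 negative, with a median of 0.049 and 0 passing.

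Of the interleukin 4 list, 12 of 15 genes had values and 7 were tested, with 4 positive and 3 negative, a median of 0.12 and 0 passing. Without shSPP1#2 replicate 2 that median was 0.001, among genes with a CPM of at least 1 in 3 libraries it was 0.034, and on log2(FPKM + 1) it was 0.038. The transglutaminase TGM2 was the most abundant at 339 to 380 FPKM. CD209, a lectin receptor, averaged 17.0 ± 0.271 FPKM in shSPP1#2 medium and 15.1 ± 0.613 FPKM in shNC medium, without overlap (log2 fold change 0.17, edgeR adjusted p = 0.483). The chemokine CCL22 measured -0.21 (-0.39 to -0.034), and -0.13 without shSPP1#2 replicate 1. The decoy receptor IL1R2 measured -0.25 (-0.51 to 0.001) with 8.46, 13.6 and 14.0 FPKM in shSPP1#2 medium against 13.3, 15.2 and 13.5 FPKM in shNC medium, and -0.080 without shSPP1#2 replicate 1, its lowest library. Of the 12 genes with values, 5 reached 1 FPKM in every library. The lowest were the mannose receptor MRC1, at 0.010 to 0.030 FPKM, and CLEC10A and CCL18, which did not exceed 0.060 FPKM. Over all 9 lists, 105 genes were tested, 59 positive and 46 negative, and 0 passed; 18 (17.1%) did not overlap between groups, where 11.1% of all genes did not.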

How the data were processed

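For 17513 genes in 6 libraries, the authors' deposited estimated counts and FPKM were used. HISAT2 2.0.4, Bowtie2 2.2.5, RSEM and build GRCh38.p13 are named, with no role or order, per the submitters' processing notes. Of the deposited estimated counts, 78.9% to 80.4% per library were not whole (tolerance 0.005); the sources used here do not give strand use, annotation or the length behind FPKM. Stray annotation lines (20) were dropped from the FPKM table, and the table of estimated counts held none.

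Estimated counts were rounded, filtered with filterByExpr, TMM-scaled and compared by the quasi-likelihood test of edgeR 4.0.16 (R 4.3.3) over 13555 genes, shSPP1#2 minus shNC, with Benjamini-Hochberg adjustment over all of them and a threshold of 0.05. The 95% intervals come from that fit. CPM uses the TMM-scaled library size. The median standard error was 0.065 among 10635 genes with a log2 CPM of at least 2. Scripts were tested on simulated data. Gene positions and transcripts are from GENCODE v29 (GRCh38); 100-base stretches were searched on both strands in all its transcripts. Promoters are from RefSeq (GRCh38.p14).

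The 9 genes and the lists were chosen with earlier results of these data known. Named genes are the 9 genes, all other Fc receptor genes with values, up to 3 of smallest p and the most abundant per pathway list, and the most abundant markers. SPI1, KLRF1, CLEC10A, CCL18, CXCL10, MRC1, GBP2, GBP4, CIITA, NKG7, PRF1, NCAM1, KLRD1 and EOMES were named after their values were seen. The same holds for CD163, AIF1, CXCR2 and ELANE. One gene that the rule names is not reported here. Alternatives were DESeq2 1.42.0 and limma 3.58.1 (voom, and log2(FPKM + 1) or log2(FPKM + 0.1) for genes with a mean FPKM of at least 0.1), other scalings and filters, a replicate block, each library left out and, added after the data were seen, a length and GC correction (mgcv 1.9.3). Figures used matplotlib 3.10.9.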

Additional observations from a re-analysis of the deposited data

How the results depend on the processing

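Under 16 alternatives, 132 of 143 values of the 9 genes kept their direction and 11 changed sign, and 0 reached an adjusted p below 0.05. FCER1G, FCGR3A, FCGR2A and FCAR kept their direction throughout; FCER1G ran from -0.24 to -0.089 and FCGR3A from -0.31 to -0.17 (lowest adjusted p 0.106 and 0.39, both under the replicate block). Sign changes occurred without shNC replicate 1 (FCGR1A -0.045, FCGR2B -0.030, SYK -0.045), without shNC replicate 2 (FCGRT 0.035), without shNC replicate 3 (FCGR1A -0.005, FCGR2B -0.037), without shSPP1#2 replicate 2 (FCGR2B -0.042, FCER2 0.005, SYK -0.005), without shSPP1#2 replicate 3 (FCGRT 0.014) and after the length and GC correction (FCGRT 0.003). With single libraries left out, FCGR1A ran from -0.045 to 0.103, FCGR2B from -0.042 to 0.162, SYK from -0.045 to 0.072, FCGRT from -0.046 to 0.035 and FCER2 from -0.239 to 0.005. The cause was not tested. The count of genes called, 0 in edgeR, was 18 without a low-count filter, 25 in DESeq2 (adjusted over 1891 genes after its independent filter, which left 5 of the 9 genes with no adjusted p), 1 in limma-voom, 2 on log2(FPKM + 0.1), 3 after the length and GC correction, and 1 to 10 with single libraries left out. The replicate block gave 59. Same-numbered libraries deviated together with correlations of 0.194, 0.286 and 0.089. Of the differently numbered pairs, shSPP1#2 replicate 3 and shNC replicate 1 gave 0.117, above the 0.089, and the others gave -0.26 to -0.013. The labels do not say that equal numbers are pairs, and the main fit did not pair them. The log2 difference in the FCGR2A to FCGR2B ratio ran from -0.093 to 0.041 with single libraries left out. Of 144 list medians under alternatives, 7 moved by more than the replicate SD (5 of the effectors downstream of SYK, at 0.017 to 0.032, 1 of the other Fc receptor genes, at 0.113 without shSPP1#2 replicate 1, and 1 of the interleukin 4 list, at 0.001 without shSPP1#2 replicate 2), and the largest in size was 0.183. FCER2 did not pass a CPM of at least 1 in 3 libraries. Depth limits FCER2, FCGR1A and FCGR3A most.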
